A study of Mus musculus with 12 samples.

Results

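Livers of Atf6a-/- and wild-type mice were compared 8 h after both received the same dose of the ER stress agent TM (tunicamycin). The comparison takes the 6 arrays of TM-treated animals, 3 of each genotype, out of 12 arrays in all, and subtracts the wild-type mean from the Atf6a-/- mean for every probeset on the array other than the Affymetrix controls. The 6 arrays of vehicle-treated animals entered the fit for their spread and, where stated, served to set a TM value beside the unstressed level. All animals were mice of varying age and of both sexes. The wild-type animals carried both normal alleles (+/+) and the Atf6a-/- animals carried the null allele throughout the body rather than in hepatocytes alone. TM was injected into the peritoneum at 2 mg/kg in 150 mM dextrose, and control animals received the dextrose. Each array holds total RNA from the liver homogenate of 1 mouse. The p-values below therefore rest on the spread between separate mice within groups, pooled over the 4 groups and adjusted by limma across probesets. In homogenate, fewer cells of a type and less RNA per cell cannot be told apart.

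ATF6α is a transmembrane protein of the ER. When unfolded protein accumulates it moves to the Golgi, is cut there by site proteases, and its released cytosolic part enters the nucleus as a transcription factor. It shares the work of the unfolded protein response (UPR) with the kinase PERK, which slows translation through eIF2α and raises ATF4 and CHOP, and with IRE1, which splices Xbp1 mRNA. ATF6α is known for raising ER chaperones and the machinery of ER-associated degradation (ERAD), by which misfolded proteins are returned to the cytosol and destroyed. TM blocks the first step of N-glycosylation, so that glycoproteins, of which the liver secretes large amounts, fail to fold. The comparison asks which parts of the response to TM differ when ATF6α is missing.

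Levels are given on the log2 scale of the deposited values, on which a difference of 1 is 2-fold, and a gene was read by its brightest probeset. A call, higher or lower, required over 1.5-fold together with a limma p that stayed under 0.05 after Benjamini-Hochberg adjustment over all 45037 probesets. The targeted gene was checked first. Under TM, Atf6 read 10.74, 11.16 and 11.01 in wild-type animals and 10.19, 9.76 and 10.50 in Atf6a-/- animals. All 3 Atf6a-/- arrays lay below all 3 wild-type arrays, but by -0.82 (SE 0.24, adjusted p = 0.0905), which did not pass. The other probesets of Atf6 differed by -0.70 and -0.20 (adjusted p by limma 0.0738 and 0.625) and did not pass either. With vehicle the brightest probeset read 8.74, 9.47 and 8.90 against 7.03, 7.15 and 7.79, again without overlap. This was a difference of -1.71, whose adjusted p by limma, 0.184, was the lowest of that comparison. The part of the transcript that the probeset reads was not analysed here, so whether these levels should fall to background in the null animals is not known. Hepatocyte markers were present at high level, with the summed level of 8 of them from 17.35 to 17.38 in wild-type and from 17.39 to 17.43 in Atf6a-/- arrays under TM. None of 58 markers in 11 lists of liver and blood cell types was called under TM, and the medians of these lists lay between -0.21 and 0.00. Y-linked transcripts were high in 1 of the 3 arrays of every group, so each genotype held the same mix.

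Under TM, 526 of 18193 genes were higher in Atf6a-/- than in wild-type animals, which is 2.89% of the genes tested, and 279 genes were lower, which is 1.53%. The decreases were the deeper changes. Among the higher genes, 429 differed by 1.5- to 2-fold, 92 by 2- to 4-fold, 5 by 4- to 8-fold and 0 by more. Among the lower genes the same classes held 137, 118 and 13, and a further 11 differed by over 8-fold. The median difference of called genes was 0.78 for those higher and -1.0 for those lower, against -0.02 for all genes. With the threshold at 2-fold the balance turned, to 97 genes higher and 142 lower. The number of higher genes rested in part on the normalization and on single arrays. With quantile normalization 407 genes were higher and 308 lower. The number of higher genes was 329 when Atf6a-/- TM replicate 1 was left out, and 267 and 343 when wild-type TM replicate 2 or 3 was. The number of lower genes stayed between 212 and 296 whichever array was left out.

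**Figure D1:**
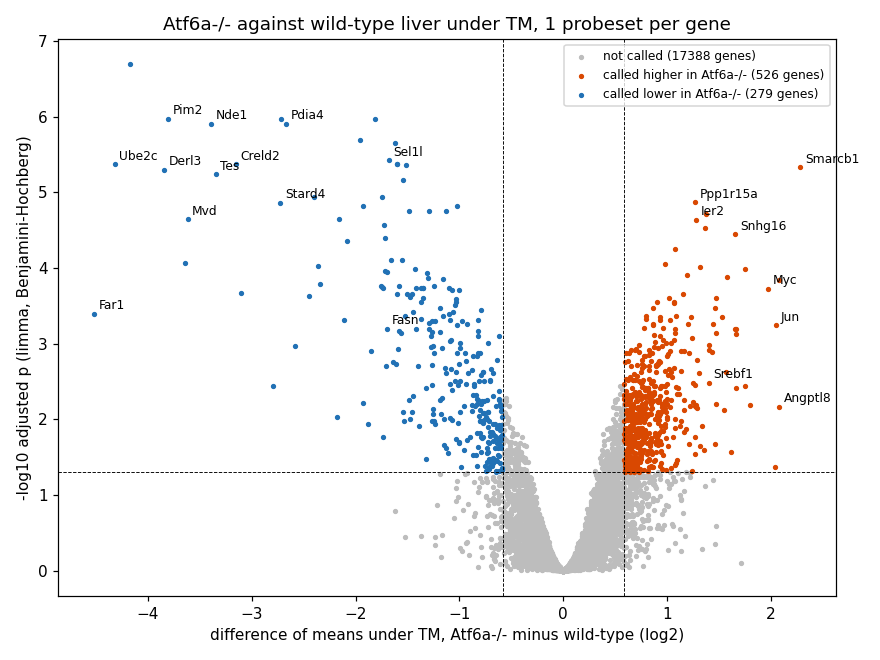
Difference of group means under TM (x axis, log2, Atf6a-/- minus wild-type) against -log10 of the adjusted p from limma (y axis) for 18193 genes, each read by 1 probeset, with dashed lines at the thresholds. The 279 lower genes (blue) reach beyond -4, to Far1 at -4.52, while the 526 higher genes (orange) stay under 2.3.

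Genes that fold and clear proteins in the ER were among the lower genes, and Derl3, Creld2, Pdia4 and Sdf2l1 were among the 20 deepest decreases. Of 23 ER chaperones and their helpers, 7 were lower (30.4%, against 1.53% of all genes) and 0 higher in Atf6a-/- animals under TM. The median was -0.33. Creld2, an ER-resident factor released during stress, read 14.13, 14.26 and 14.32 in wild-type animals and 10.88, 10.97 and 11.38 in Atf6a-/- animals. The groups stood far apart, by -3.15 (SE 0.21, adjusted p = 4.27e-06), and the Atf6a-/- arrays still lay above the vehicle means of 9.36 and 9.12. Sdf2l1, a partner of ER J-proteins, read 12.11, 12.63 and 12.44 against 9.58, 9.94 and 10.64, a difference of -2.34 (SE 0.24, adjusted p = 0.000165). Dnajb11, a co-chaperone that hands substrates to BiP, read 12.71, 12.99 and 12.68 against 11.28, 11.26 and 11.56 (-1.42, SE 0.14, adjusted p = 0.000103). Every Atf6a-/- array of Dnajb11 was below every wild-type array. Smaller decreases passed for Dnajc3 (-1.02), which restrains PERK, for Dnajc10 (-0.84), a reductase of ERAD substrates, for Hsp90b1 (-0.65), the ER member of the HSP90 family, and for Creld1 (-0.61). By the brightest probeset these 4 calls were lost in 2 or more of the fits that left out 1 TM array. With all arrays, the 5 probesets of Dnajc3, the 3 of Dnajc10 and the 2 of Hsp90b1 were all called lower. The second probeset of Hsp90b1 gave -1.21. The count of 7 became 4 when Atf6a-/- TM replicate 1 was left out, 3 when replicate 2 of wild-type TM was and 4 when replicate 3 of wild-type TM was. Hspa5, which encodes BiP, the central ER chaperone, read 14.43, 14.49 and 14.53 against 14.24, 14.17 and 14.40. The arrays did not overlap, but the difference of -0.22 did not pass (SE 0.19, adjusted p = 0.704). Arrays that do not overlap are common at this sample size. The Atf6a-/- arrays lay wholly above the wild-type arrays in 2438 genes (13.4%) and wholly below in 1855 (10.2%), and 13 of the 23 chaperones were among the latter.

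Of 24 enzymes that form and rearrange disulfide bonds, 4 were lower (16.7%, against 1.53% of all genes) and 0 higher, with a median of -0.20. Pdia4, a protein disulfide isomerase also called ERp72, read 12.24, 12.88 and 12.36 in wild-type animals and 9.68, 9.82 and 9.98 in Atf6a-/- animals. The Atf6a-/- level was close to its vehicle mean of 9.59, and the difference from wild-type was -2.67 (SE 0.15, adjusted p = 1.25e-06). Pdia3 (-1.17), which serves glycoproteins, Pdia6 (-1.08) and Ero1b (-1.16), an oxidase that recharges these isomerases, also passed. In ERAD, 5 of 29 genes were lower (17.2%, against 1.53% of all genes) and 0 higher, but the median of the list, -0.10, was near that of all genes. Derl3, a derlin of the retrotranslocation channel, read 13.58, 13.86 and 13.77 against 10.03, 9.35 and 10.32. This was the deepest decrease in any ER list, by 14.3-fold (-3.84, SE 0.26, adjusted p = 5.01e-06). Sel1l and Syvn1 encode the adaptor and the ubiquitin ligase of the HRD1 complex. Sel1l read 13.40, 13.53 and 13.33 against 11.64, 11.78 and 11.81 (-1.68, SE 0.11, adjusted p = 3.77e-06), and Syvn1 read 13.02, 12.89 and 12.90 against 11.46, 11.31 and 11.63 (-1.47, SE 0.16, adjusted p = 0.00024). Neither gene overlapped between genotypes, and in each the Atf6a-/- animals under TM exceeded their own vehicle means of 10.32 and 9.23. Edem1 (-1.06), a lectin that marks glycoproteins for disposal, and Rnf5 (-0.61), an ER-bound ubiquitin ligase, were lower too. Rnf5 lost its call without any 1 of 3 of the TM arrays.

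In other lists of the secretory pathway the called members were few. Of all genes 2.89% were higher and 1.53% lower, so a single call is not read as a result about its list. In the translocon and signal peptidase list, 1 of 21 genes was lower, Sec11a (-0.71), a catalytic subunit of signal peptidase, which did not pass with the mean of all its probesets. In N-glycosylation 2 of 36 were lower, Dolpp1 (-0.83), which recycles the dolichol carrier, and Magt1 (-0.66), a subunit of oligosaccharyltransferase. In transport between ER and Golgi 1 of 47 was higher (2.13%), Sec24b (0.61) of the COPII coat. Another was lower (2.13%), Kdelr3 (-1.0), a receptor that retrieves ER residents. These shares are near those of all genes. Both calls were lost in at least 3 of the 6 fits that left out a TM array. Of 18 sensors and transcription factors of the UPR, 1 was higher, Ern1 (0.90, SE 0.19, adjusted p = 0.0179), which encodes IRE1. Its call was lost with the mean of its probesets, and when Atf6a-/- TM replicate 1 or wild-type TM replicate 2 or 3 was left out. Total Xbp1 differed by 0.13 (adjusted p = 0.631), and Dnajb9, a well known target of XBP1, by -0.02 (SE 0.22, adjusted p = 0.983). Xbp1 and Dnajb9 were chosen after their values were seen, as were Nucb1, Calr, Canx and Herpud1, which are described for their promoters.

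**Figure D2:**
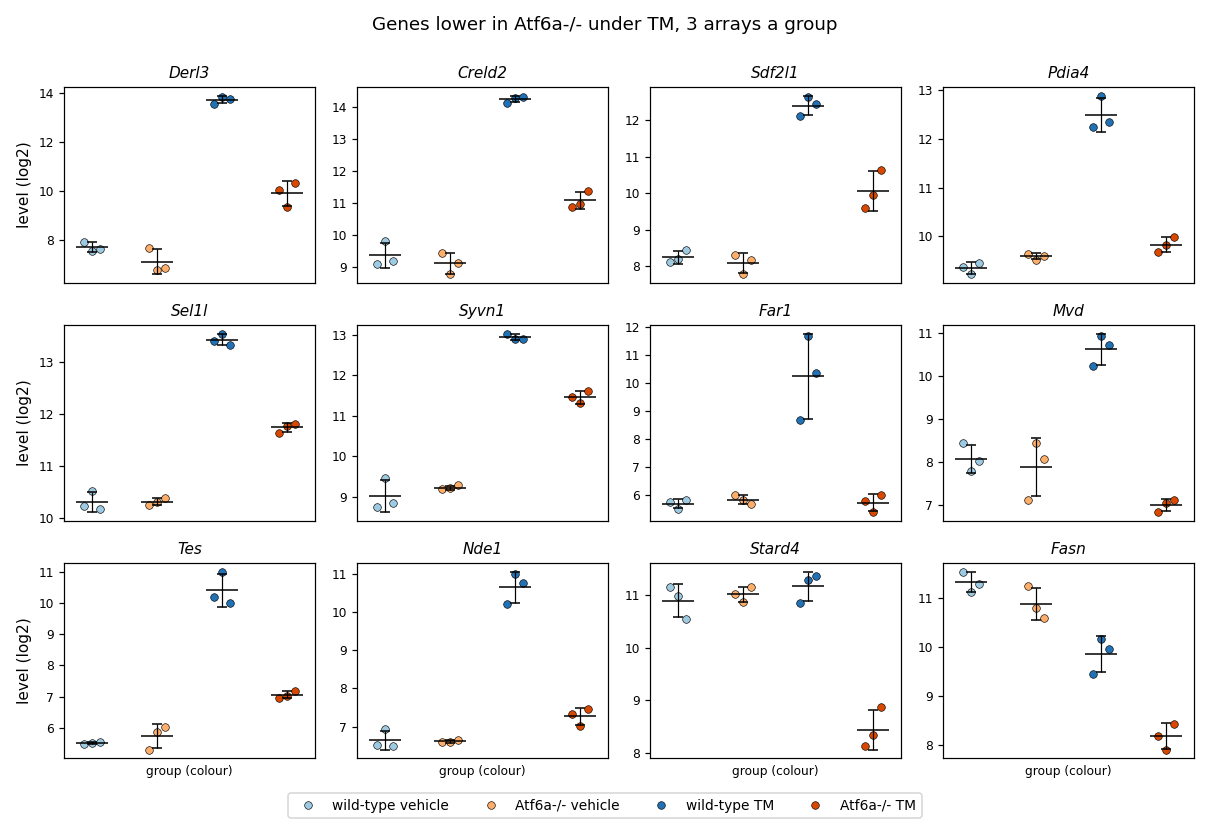
Level of 12 genes that were lower in Atf6a-/- than in wild-type animals under TM (log2, each panel on its own scale), with a point for each of 3 arrays in the 4 groups, a line for the mean and bars for the SD. In Derl3, Creld2, Sdf2l1, Sel1l and Syvn1 the Atf6a-/- TM arrays lie between vehicle and wild-type TM, in Pdia4 and Far1 close to vehicle, and in Stard4 and Fasn below every vehicle array.

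Promoter sequence offers a view of these genes that did not use the arrays. The ER stress element (ERSE), to which ATF6 binds with NF-Y, was searched as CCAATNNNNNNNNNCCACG, and the shorter ERSE-II as ATTGGNCCACG, on both strands from 250 bases before to 50 after the start. Of the 18193 genes, 11791 had 1 promoter entry in RefSeq (GRCm38.p6). An exact ERSE was present in 17 of these promoters (0.144%) and an exact ERSE-II in 6 (0.0509%). Of the 23 genes so chosen by sequence, 9 were lower and 0 higher in Atf6a-/- animals under TM, which is 39.1% against 1.67% of all genes with a promoter. Among the 197 lower genes with a promoter 7 held an ERSE (3.55%), and among the 343 higher genes 0 did. The stretches below come from lower genes and show the element in capitals with up to 20 bases on each side, 5′ to 3′ on the strand of the gene. An element that begins CGTGG is in the reverse orientation.
Derl3, chr10:75893222-75893280, + strand: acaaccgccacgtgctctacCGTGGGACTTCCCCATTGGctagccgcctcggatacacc
Creld2, chr15:88819500-88819558, + strand: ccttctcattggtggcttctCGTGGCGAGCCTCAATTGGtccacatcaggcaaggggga
Syvn1, chr19:6046512-6046570, + strand: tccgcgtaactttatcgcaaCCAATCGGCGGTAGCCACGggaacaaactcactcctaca
Ero1b, chr13:12565662-12565720, + strand: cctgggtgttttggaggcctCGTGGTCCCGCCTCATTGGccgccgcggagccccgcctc
Pdia6, chr12:17266471-17266529, + strand: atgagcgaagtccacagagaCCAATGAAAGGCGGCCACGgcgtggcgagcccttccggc
Dnajc3, chr14:118937807-118937865, + strand: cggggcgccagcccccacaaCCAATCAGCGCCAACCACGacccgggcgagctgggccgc
Hsp90b1, chr10:86705618-86705676, - strand: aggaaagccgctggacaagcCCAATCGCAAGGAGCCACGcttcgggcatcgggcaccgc
Nucb1 (ERSE-II), chr7:45510419-45510469, - strand: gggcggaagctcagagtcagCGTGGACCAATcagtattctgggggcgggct
Hsp90b1 holds a second ERSE nearer its start, and the ERSE-II of Dnajb11 lies after the start and is not shown. Nucb1, which encodes a calcium-binding protein of the Golgi, read 11.23, 11.52 and 11.26 in wild-type and 10.64, 10.48 and 10.40 in Atf6a-/- animals, with no overlap (-0.83, SE 0.10, adjusted p = 0.000678).

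An exact element did not by itself mark a gene as lower. The same element stands before Hspa5 (-0.22, adjusted p = 0.704), before Calr (-0.32, SE 0.08, adjusted p = 0.0572) and Canx (-0.37, SE 0.09, adjusted p = 0.0329), the lectin chaperones of the calnexin cycle, and in its shorter form before Herpud1 (-0.52, adjusted p = 0.107), an ERAD scaffold. Canx passed in p but stayed under 1.5-fold. The 4 stretches are given to be read against those of the lower genes.
Hspa5, chr2:34772005-34772063, + strand: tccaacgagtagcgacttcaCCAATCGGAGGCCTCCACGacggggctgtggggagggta
Calr, chr8:84847055-84847113, - strand: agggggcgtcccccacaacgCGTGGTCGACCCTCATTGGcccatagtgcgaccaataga
Canx, chr11:50325780-50325838, - strand: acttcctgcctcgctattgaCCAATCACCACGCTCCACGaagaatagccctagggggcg
Herpud1 (ERSE-II), chr8:94386357-94386407, + strand: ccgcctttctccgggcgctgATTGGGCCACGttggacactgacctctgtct
Across the 23 genes the median difference was -0.46, and the median response to TM was 1.22 in wild-type and 0.82 in Atf6a-/- animals.

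**Figure D3:**
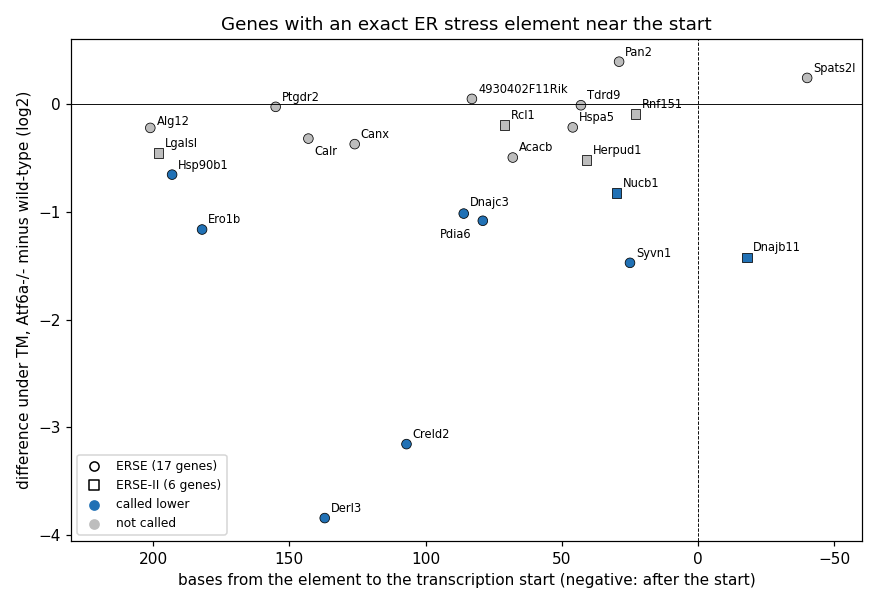
Difference under TM (y axis, log2, Atf6a-/- minus wild-type) of the 23 genes with an exact ERSE (circles) or ERSE-II (squares), against the number of bases between the element and the transcription start (x axis, the element farthest from the start where there are several). The 9 lower genes (blue) lie at distances from 193 bases before to 18 after the start, among genes that were not called (grey).

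Allowing 1 mismatch in the 10 fixed letters, a choice made after the values were seen, 207 promoters held an ERSE (1.76%). They included 29 of the 197 lower genes (14.7%) and 8 of the 343 higher genes (2.33%). Pdia4, Sel1l, Pdia3 and Ddit3 were among the lower ones, and the 19-base match is in capitals here.
Pdia4, chr6:47813582-47813640, - strand: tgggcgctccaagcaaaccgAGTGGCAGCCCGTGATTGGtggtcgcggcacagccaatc
Sel1l, chr12:91849310-91849368, - strand: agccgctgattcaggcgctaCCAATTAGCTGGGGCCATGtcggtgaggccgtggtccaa
Pdia3, chr2:121413853-121413901, + strand: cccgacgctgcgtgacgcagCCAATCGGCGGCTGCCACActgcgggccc
Ddit3, chr10:127290682-127290740, + strand: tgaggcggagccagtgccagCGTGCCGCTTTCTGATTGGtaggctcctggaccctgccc
The CCAAT box alone, which is part of the ERSE and is known as the site of NF-Y, was in 145 of 197 lower promoters (73.6%), 111 of 343 higher ones (32.4%) and 38.6% of all. The other motifs are given in the order of lower, higher and all promoters. The UPRE core TGACGTGG was in 1.52%, 0.583% and 0.772%, the E-box CACGTG in 10.7%, 12.5% and 9.04%, and AP-1 as TGANTCA in 2.03%, 2.92% and 6.15%. The cAMP element TGACGTCA was in 1 lower promoter, in 20 higher ones (5.83%) and in 2.70% of all. These counts are small, and with genes of several promoter entries included, a choice made after the values were seen, TGACGTCA was in 4 of 243 lower promoters (1.65%). A match is a description of the letters and not a bound site.

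Most of the 20 deepest decreases were in genes outside the ER and UPR lists. Far1, which makes fatty alcohols for ether lipids, read 8.68, 11.70 and 10.37 in wild-type and 5.77, 5.41 and 6.0 in Atf6a-/- animals. The wild-type arrays spread widely (SD 1.52). The means differed by 22.9-fold (-4.52, SE 0.52, adjusted p = 0.000403), and all 5 probesets of the gene were called lower. Ube2c, a ubiquitin-conjugating enzyme of mitosis, read 9.50, 10.51 and 10.07 against 5.92, 5.46 and 5.75 (-4.32, SE 0.28, adjusted p = 4.27e-06). Pim2, a survival kinase, read 8.98, 10.02 and 9.61 against 5.72, 5.91 and 5.58 (-3.80, SE 0.20, adjusted p = 1.08e-06). In these 3 genes wild-type TM replicate 1 was the lowest and replicate 2 the highest of the wild-type arrays. The 20 largest changes in each direction were picked among called genes without overlap. The lack of overlap in them follows from that choice. Nde1 (-3.39), which positions dynein in dividing cells, Tes (-3.35), a focal adhesion protein, Ppip5k1 (-3.11), an inositol phosphate kinase, Prkcz (-2.72), an atypical protein kinase C, and Atp8b2 (-2.40), a phospholipid flippase, were also among the 20 deepest. B230217C12Rik (-4.17), Mcf2l (-3.64), Enho (-2.80), which encodes the secreted peptide adropin, Pkhd1 (-2.59) and Hey2 (-2.36), a Notch target, complete those not named elsewhere. In 28 of the 279 lower genes the Atf6a-/- mean lay below 5.04, the median of all probesets, and signal above background is not shown there. B230217C12Rik (4.35), Mcf2l (4.58) and Hey2 (3.50) were among them. The other probeset of B230217C12Rik (-0.16) was not called.

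Ccl9, a chemokine of myeloid cells and liver, read 13.20, 13.56 and 13.49 in wild-type and 10.70, 10.84 and 11.37 in Atf6a-/- animals (-2.45, SE 0.26, adjusted p = 0.000233). Of 9 Kupffer cell and macrophage markers 0 were called, 0 had a positive difference, and their summed level ran from 12.86 to 13.08 in wild-type and from 12.41 to 12.90 in Atf6a-/- arrays under TM. The part of these cells in the level of Ccl9 was not tested. Smarcb1, a chromatin remodelling subunit, was the only one of 114 called genes named by rule whose probesets were called in opposite directions, 2.28 by the brightest, -4.29 by another and 0.06 by the last, so no direction is given for it. Of the 114 genes, 66 had over 1 probeset, and in 25 of these every probeset was called the same way. In the rest not every probeset was called.

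The branch of the response run by PERK and ATF4 moved both ways. Of 20 genes, 4 were higher (20%, against 2.89% of all genes) and 2 lower (10%, against 1.53%) in Atf6a-/- animals under TM. Ppp1r15a, the GADD34 subunit that leads phosphatase to eIF2α, read 10.10, 10.11 and 10.14 in wild-type and 11.50, 11.33 and 11.32 in Atf6a-/- animals. The arrays within a group were nearly equal and the genotypes differed by 1.27 (SE 0.09, adjusted p = 1.36e-05). Atf3, a stress-induced transcription factor, read 11.46, 10.85 and 11.27 against 12.52, 12.42 and 12.36 (1.24, SE 0.16, adjusted p = 0.000849), again without overlap. Sesn2 (1.08), which restrains mTORC1, and Cebpb (0.90), whose call was lost without wild-type TM replicate 2, were higher as well. Ddit3, which encodes CHOP, went the other way, with 14.19, 13.95 and 13.77 in wild-type and 12.89, 13.02 and 13 in Atf6a-/- animals. It was lower by 2-fold (-1.0, SE 0.10, adjusted p = 0.000199), although both genotypes lay far above their vehicle means of 7.18 and 6.84. Chac1, which degrades glutathione, read 11.45, 11.02 and 11.42 against 9.92, 9.73 and 9.13 (-1.70, SE 0.25, adjusted p = 0.002). Atf4 itself differed by 0.09 (adjusted p = 0.845), a value chosen after it was seen.

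Some transcription factors of the early response were higher. The 21 immediate early genes held 4 that were higher (19.0%, against 2.89% of all genes) and 0 that were lower, with a median of 0.30. Jun, a subunit of AP-1, read 8.46, 7.34 and 8.49 in wild-type and 10.35, 10.03 and 10.05 in Atf6a-/- animals, a difference of 2.05 (SE 0.25, adjusted p = 0.00057), with wild-type TM replicate 2 the lowest of all. Myc, a driver of growth and ribosome production, read 8.41, 8.15 and 8.39 against 10.80, 9.83 and 10.24 (1.97, SE 0.20, adjusted p = 0.000189). Neither overlapped. Ier2 had another shape. It read 7.62, 7.44 and 7.52 in wild-type and 8.63, 8.93 and 8.85 in Atf6a-/- animals (1.28, SE 0.10, adjusted p = 2.32e-05), and the latter lay around the vehicle means of 8.77 and 8.85. Jund (0.98) was higher by its brightest probeset, but not with the mean of its probesets. Outside this list, Klf11 (1.74) was higher among 15 Krüppel-like factors read by their brightest probesets. Gadd45a (1.66), a growth arrest gene, Plk3 (1.46) and Mdm2 (0.68), the ligase that degrades p53, were higher and Sesn3 (-0.68) lower among 17 genes linked to GADD45 and p53. That was 17.6% higher and 5.88% lower, against 2.89% and 1.53% of all genes. Of 14 members of the BCL2 family 2 were higher (14.3%), the antiapoptotic Mcl1 (0.81) and the proapoptotic Bid (0.61). The calls of Plk3, Mdm2, Sesn3, Mcl1 and Bid did not hold under every alternative run for named genes.

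The 20 largest increases held genes of varied roles. Arhgap26 (2.03), Irf2bp2 (1.75), a transcriptional corepressor, Spring1 (1.66), a factor needed for SREBP processing, and Itpkc (1.58), an inositol trisphosphate kinase, were among them. The others not described elsewhere were Sowahb (1.66), Prdm15 (1.66), Erdr1 (1.62), N4bp2l1 (1.57), Eepd1 (1.55), Mideas (1.53) and Zfp948 (1.47). The calls of Arhgap26, Erdr1 and Mideas did not hold under every alternative run for named genes. The other probeset of Itpkc (0.10), of N4bp2l1 (0.42), of Eepd1 (0.02) and of Zfp948 (-0.20) was not called.

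**Figure D4:**
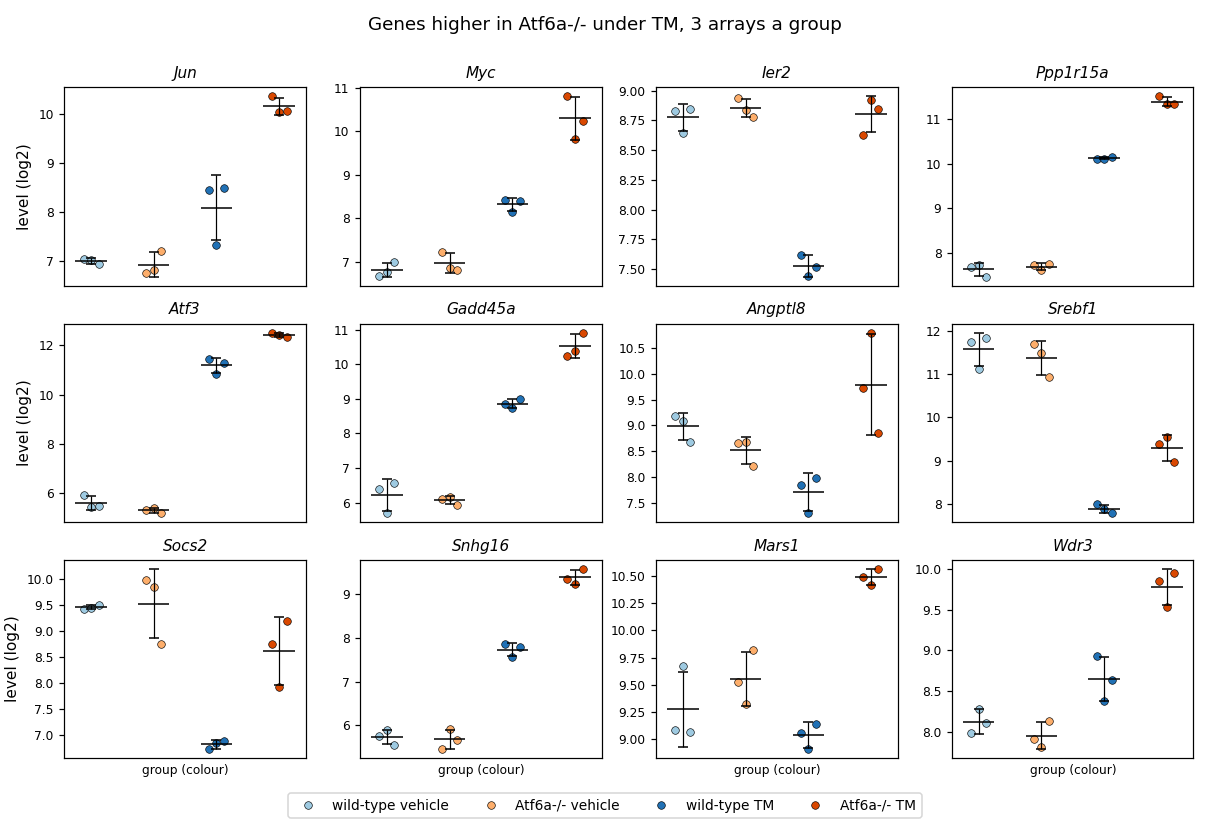
Level of 12 genes that were higher in Atf6a-/- than in wild-type animals under TM (log2, each panel on its own scale), with a point for each of 3 arrays in the 4 groups, a line for the mean and bars for the SD. In Jun, Myc, Atf3 and Gadd45a both TM groups lie above vehicle, while in Srebf1 and Socs2 the Atf6a-/- TM mean lies between wild-type TM and vehicle.

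Ribosome biogenesis was the list with the most members called higher. Of 45 genes for rRNA processing and ribosome assembly, 13 were higher (28.9%, against 2.89% of all genes) and 0 lower. The Atf6a-/- arrays lay wholly above the wild-type arrays in 33 of the 45, against 13.4% of all genes. The median was 0.55, against -0.02 for all genes. Tsr1, which checks the small subunit, read 9.86, 9.61 and 9.41 in wild-type and 11.07, 10.54 and 11.21 in Atf6a-/- animals (1.31, SE 0.29, adjusted p = 0.0225). Wdr3, of the small subunit processome, read 8.93, 8.38 and 8.63 against 9.85, 9.53 and 9.95 (1.13, SE 0.15, adjusted p = 0.00125), and Gar1 (0.95) and Dkc1 (0.92), of the particles that make pseudouridine, were higher too. The other 9 were Rrs1 (0.94), Wdr75 (0.92), Nip7 (0.91), Noc3l (0.90), Gnl3 (0.88), Bop1 (0.64), Pes1 (0.63), Ddx18 (0.63) and Nop14 (0.60). No array overlapped in Tsr1, Wdr3, Gar1 and Dkc1, but the number called in the list moved widely. It was 8 and 4 when Atf6a-/- TM replicate 1 or 3 was left out, and 6 and 7 when wild-type TM replicate 2 or 3 was. Among 14 host genes of small nucleolar RNAs 3 were higher (21.4%), Snhg17, Snhg12 (1.17) and Snhg5 (0.63), and Snhg16 (1.66) was among the 20 largest increases. The median of this list, 0.39, became 0.07 when Atf6a-/- TM replicate 3 was left out. Snhg17 read 5.98, 5.41 and 5.47 in wild-type and 7.94, 7.48 and 7.66 in Atf6a-/- animals (2.07, SE 0.21, adjusted p = 0.000143), the wild-type arrays lying near the vehicle mean of 5.42.

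The cytosolic tRNA synthetases, which charge amino acids onto tRNA, split unevenly. Of 19, 4 were higher (21.1%, against 2.89% of all genes) and 1 lower (5.26%, against 1.53%), with a median of 0.30. Mars1 for methionine read 9.06, 8.90 and 9.14 in wild-type and 10.50, 10.42 and 10.57 in Atf6a-/- animals (1.46, SE 0.16, adjusted p = 0.000338), and Rars (0.88), Tars (0.77) and Lars (0.61) were higher. Wars for tryptophan was the exception, with 9.78, 9.87 and 9.71 against 8.69, 8.85 and 8.69 (-1.04, SE 0.12, adjusted p = 0.000313). The count of 4 became 2 without wild-type TM replicate 3 and 2 without Atf6a-/- TM replicate 3. Amino acid genes were divided as well. The transporters Slc7a5 (0.69), Slc3a2 (0.68) and Slc38a2 (0.59) were higher, and the enzymes Got1 (-1.01), which makes aspartate, and Aldh18a1 (-1.53), which starts proline synthesis, were lower, out of 23 genes. Aldh18a1 lost its call without Atf6a-/- TM replicate 1 or wild-type TM replicate 2. None of the 3 transporters passed without Atf6a-/- TM replicate 3, and 1 did in each fit without Atf6a-/- TM replicate 1 or 2 or wild-type TM replicate 2 or 3.

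Few lipid genes were called. In cholesterol synthesis and uptake 2 of 22 genes were lower (9.09%, against 1.53% of all genes) and 0 higher, with a median of -0.21. The count of 2 became 4 without Atf6a-/- TM replicate 2. Stard4, which carries sterols between membranes, read 10.85, 11.29 and 11.37 in wild-type and 8.13, 8.35 and 8.87 in Atf6a-/- animals. It was lower by 6.61-fold (-2.73, SE 0.20, adjusted p = 1.39e-05) and all 3 Atf6a-/- arrays lay under the vehicle means of 10.90 and 11.02. Mvd, which makes isopentenyl diphosphate in the mevalonate pathway, read 10.24, 10.94 and 10.72 against 6.85, 7.06 and 7.13 (-3.62, SE 0.29, adjusted p = 2.27e-05), the Atf6a-/- arrays again below the vehicle mean of 7.89. Fasn, the fatty acid synthase, read 9.46, 10.16 and 9.97 against 8.17, 7.90 and 8.43 and was lower (-1.69, SE 0.21, adjusted p = 0.000639). Srebf1, which encodes the SREBP1 regulators of such enzymes, was higher instead, with 7.99, 7.88 and 7.79 against 9.37, 9.53 and 8.96 (1.40, SE 0.22, adjusted p = 0.00331). Both were below the vehicle means, of 11.33 and 10.89 for Fasn and of 11.57 and 11.37 for Srebf1. They were the only called members among 24 genes of fatty acid and triglyceride synthesis, and Acaca differed by -0.27 (adjusted p = 0.617). That was 4.17% higher and 4.17% lower, against 2.89% and 1.53% of all genes. Of 29 genes of fatty acid oxidation and ketogenesis 0 were called, with a median of -0.03.

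Among 23 lipoprotein genes, Angptl8, a hepatokine that inhibits lipoprotein lipase, read 7.86, 7.31 and 7.98 in wild-type and 9.72, 10.80 and 8.85 in Atf6a-/- animals. It was higher, but with a wide spread (2.08, SE 0.37, adjusted p = 0.00685). Apoc2, the activator of the same lipase, was lower (-0.83, SE 0.14, adjusted p = 0.00624). That made 4.35% of the list higher and 4.35% lower, against 2.89% and 1.53% of all genes. Apob and Mttp, which build VLDL, differed by -0.13 and 0.03 (adjusted p = 0.896 and 0.963). Of 33 transcription regulators of liver metabolism 4 were higher (12.1%, against 2.89% of all genes), with a median of 0.30. They were Ppargc1b (1.07), Prox1 (0.98), Foxa2 (0.81) and Pparg (0.67). Of these 4, only Prox1 stayed called without wild-type TM replicate 1 or 2, without Atf6a-/- TM replicate 1 or 3, with quantile normalization and with the replicate number as a block, and Prox1 in turn lost its call with the mean of its probesets. Cebpa and Ppara differed by 0.22 and 0.19, neither of them called. Ppargc1a had means of 4.46 in wild-type and 4.42 in Atf6a-/- animals under TM, both under the median of all probesets, so its difference of -0.03 is no measure of equal levels. Of 19 lipid droplet genes Lipe (0.60), a hormone-sensitive lipase, was higher, and it lost its call in 5 of the 6 fits that left out a TM array.

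Of the remaining lists, cell cycle genes were mixed, with 5 of 39 lower (12.8%) and 2 higher (5.13%). Of all genes 1.53% were lower and 2.89% higher. Beside Ube2c and Nde1, Ccne2 (-1.93), Top2a (-1.39) and Nusap1 (-1.19) were lower. Their Atf6a-/- means under TM (4.43, 4.38 and 4.55) lay below 5.04, where signal above background is not shown. Other probesets of Top2a (-0.12 and -0.14) and Nusap1 (-0.22) were not called. Top2a lost its call without wild-type TM replicate 1 or 3 and with the mean of its probesets. Mcm7 (0.91) and Cdt1 (0.95), which act in loading the replication helicase, were higher. The 2 higher calls became 1 in each fit that left out a TM array. Socs2, a growth hormone target that feeds back on its receptor, read 6.73, 6.86 and 6.89 in wild-type and 8.75, 7.92 and 9.20 in Atf6a-/- animals (1.80, SE 0.32, adjusted p = 0.00652). Of its 6 probesets 2 were called higher. Irs1 (0.72) fell under 1.5-fold without Atf6a-/- TM replicate 2. Socs2 and Irs1 made 2 of 20 genes (10%) of the growth hormone and IGF axis. Of 18 clock genes Rora (0.94) was higher (5.56%) and Per1 (-1.24) lower (5.56%). Hc, complement component C5, read 11.80, 11.63 and 11.54 against 10.22, 10.95 and 10.40 (-1.13, SE 0.17, adjusted p = 0.00242). It was the only one of 31 coagulation, complement and other secreted proteins to pass, which is 3.23% of the list. Nfe2l2 (0.65), which encodes NRF2, was the only one of 18 genes of the NRF2 list called by its brightest probeset. Its call was lost without wild-type TM replicate 1 or 2 or Atf6a-/- TM replicate 1 or 3. In the lists of proteasome (31 genes), cytosolic heat shock (16), acute phase (25), glucose metabolism (17), bile acid (15) and NF-kB (18) genes 0 were called by limma.

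**Figure D5:**
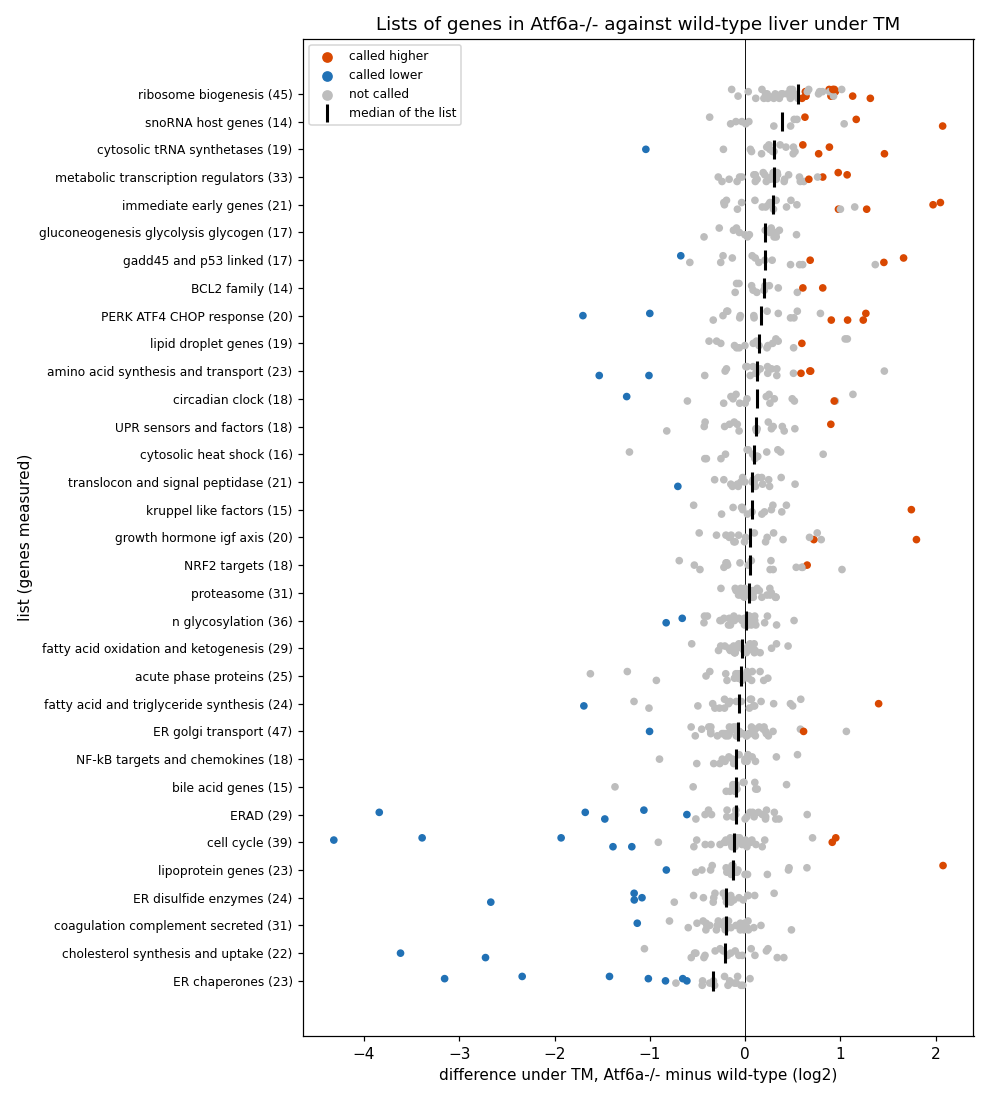
Difference under TM (x axis, log2, Atf6a-/- minus wild-type) of the measured members of 33 lists of genes (y axis, number measured in parentheses), with called members in colour and a black bar at the median of each list. ER chaperones have the lowest median (-0.33) and ribosome biogenesis the highest (0.55), and single genes lie far from the median of their list in ERAD, cell cycle and cholesterol synthesis.

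With vehicle the same comparison called 0 genes by limma, where 1618 of 45037 probesets had an unadjusted p under 0.05 and the lowest adjusted p was 0.184. Of the 526 higher genes 524, and of the 279 lower genes 273, differed by less than 1.5-fold between the genotypes with vehicle. Such small differences were the rule there, with a median absolute difference of 0.083 over all probesets. Whether the genotype difference itself changed with TM was tested by the interaction, which called 193 genes higher (1.06%) and 136 lower (0.748%). Of the 114 called genes named here by rule, 61 passed the interaction as well. The number of higher genes in the interaction was 107 when Btf3 and Ppia served to centre the arrays, against 130 lower, where the probeset read for Ppia also names Gm9234. It fell to 73 or 81 without Atf6a-/- vehicle replicate 1 or 2, to 68 without wild-type vehicle replicate 3, to 90 without Atf6a-/- TM replicate 1, and to 64 or 82 without wild-type TM replicate 2 or 3. The lower genes were 85 or 86 without Atf6a-/- vehicle replicate 1 or 2 and 82 without wild-type TM replicate 2. With 3 arrays on each side the smallest p of an exact permutation test is 0.1, and none was run.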

How the data were processed

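Total RNA of mouse liver homogenate was measured on 12 Affymetrix 1-colour arrays, 1 mouse per array and 3 per group, grouped by the sample labels. The authors deposited log2 values made by RMA with the affy package, which the labels name beside limma. RMA subtracts background, quantile normalizes probe intensities across arrays and summarises each probeset, so a change shared by most genes is removed. Tool versions are not given in the labels or methods read here. These values were taken as deposited. After 64 control probesets were left out, 45037 were tested. The annotation names 1 gene for 34945, several for 932 and none for 9160, which gives 18193 genes by the brightest probeset. Some genes not called by that probeset had another that was called under TM and are counted as not called. Among them were Klf9 (0.74), Keap1 (0.71), Srebf2 (0.85), Snhg1 (1.14) and Igf2r (-0.64). Detection calls and depth do not exist in these values, and the number of arrays limits the precision.

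R 4.3.3 and limma 3.58.1 fitted 1 mean per group to all 12 arrays with eBayes (8 residual and 4.25 prior degrees of freedom). Calls need a Benjamini-Hochberg adjusted p under 0.05 over all probesets and over 1.5-fold. The members of the lists and the tests were chosen with earlier results of these data known. By rule, the text names the 20 largest changes in each direction among called genes whose arrays do not overlap and whose higher group mean is above the median of all probesets (5.04), the called members and the 4 with the largest statistic in each list, and UPR and lipid genes of the study. All called genes of this set are named, while most that were not called enter only the counts. Of 900 list entries 842 were measured, and the others are not analysed here. Lists and promoters were described without a test. Promoters are from RefSeq (GRCm38.p6). Genes with several entries (2661) or none (3741) were left out. The fit and the motif search were tested on simulated data. Alternatives were other normalizations, filters, thresholds, variance models, the methods' t-test, a sex covariate, the replicate number as a block, array weights, the 6 TM arrays alone, each gene's mean over its probesets, another promoter window and leaving out each array.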

Additional observations from a re-analysis of the deposited data

Results flagged for a closer look

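The genotype difference under TM was set against the genotype difference with vehicle, and the test of the interaction by limma passed for 193 genes in the higher and 136 genes in the lower direction. Among the 114 called genes that the report names by rule, 61 differed in this way, with adjusted p from 1.93e-05 to 0.0478. Values in parentheses are the interaction on the log2 scale, the Atf6a-/- minus wild-type difference under TM less the same difference with vehicle. The interaction shares its TM arrays with the comparison under TM, so it is not a second measurement of it.

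The deepest in the lower direction were Far1 (-4.66), Mcf2l (-4.16), B230217C12Rik (-3.97), Pim2 (-3.83), Ube2c (-3.69), Tes (-3.58), Mvd (-3.42), Nde1 (-3.36), Derl3 (-3.25) and Ppip5k1 (-3.08). They were followed by Creld2 (-2.91), Pdia4 (-2.91), Stard4 (-2.84), Prkcz (-2.53), Ccl9 (-2.51), Pkhd1 (-2.37), Atp8b2 (-2.35), Hey2 (-2.33), Sdf2l1 (-2.18) and Sel1l (-1.69). Smaller but still past the threshold were Syvn1 (-1.68), Dnajb11 (-1.54), Got1 (-1.33), Ccne2 (-1.32), Per1 (-1.19), Wars (-1.11), Pdia3 (-1.04), Edem1 (-0.98), Magt1 (-0.89) and Dolpp1 (-0.87). In the higher direction the interaction was largest for Angptl8 (2.54), Snhg17 (2.14), Jun (2.12), Zfp948 (1.89), Sowahb (1.85), Myc (1.82), Gadd45a (1.81), Prdm15 (1.74), Snhg16 (1.72) and Mideas (1.67). Next came Itpkc (1.62), Srebf1 (1.59), Atf3 (1.55), Klf11 (1.53), Prox1 (1.34), Wdr3 (1.30), Snhg12 (1.26), Ppp1r15a (1.20), Ier2 (1.20), Mars1 (1.18) and Mcm7 (1.17). The others were Gar1 (1.13), Dkc1 (1.10), Jund (1.03), Tars (1.01), Mcl1 (1.00), Rora (0.98), Sesn2 (0.96), Rars (0.81) and Ddx18 (0.79). The remaining gene of the 61 is Smarcb1, whose brightest probeset gave 2.43, but its probesets oppose each other and no direction is given for it. No group had the 4 arrays needed to test for a single outlying array.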

How the results depend on the processing

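Under TM the higher genes were 97 and the lower ones 142 with a 2-fold threshold, and both were 0 by the methods' t-test once Benjamini-Hochberg adjustment was applied, against 644 and 308 without it. Quantile normalization gave 407 higher and 308 lower genes. Leaving out 1 array gave 267 to 623 higher and 212 to 296 lower genes. With vehicle, 26 higher and 46 lower genes had an unadjusted p under 0.05 and over 1.5-fold by limma, the methods' t-test without adjustment gave 6 and 14, centring on Btf3 and Ppia gave 1 lower, and leaving out 1 array gave 0 to 17 higher and 0 to 24 lower, the highest of both without wild-type vehicle replicate 2. In the interaction the higher genes were 107 with centring on Btf3 and Ppia, 96 with a 2-fold threshold, 309 with the sex score, 896 by unadjusted p, and 761 and 30 by the methods' t-test without and with adjustment. The lower ones were 376 by unadjusted p, and 334 and 43 by that t-test. Leaving out 1 array gave 64 to 235 higher and 82 to 162 lower. The share of higher genes in the interaction was 58.7%, but 45.1% with that centring, 48.8% with quantile normalization, 49.0% with a 2-fold threshold, 41.1% by the adjusted t-test and 40.2% to 65.8% without 1 array. The probeset read for Ppia also names Gm9234. The cause of these changes was not tested.

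Replicate numbers did not pair the arrays, since same-numbered TM arrays deviated from their group means with correlations of -0.09, -0.19 and 0.32. With the number as a replicate block 500 genes were higher and 266 lower under TM, 0 and 0 with vehicle, and 165 and 125 in the interaction. Named genes were run with quantile normalization, centring on Btf3 and Ppia, the sex score, the replicate block and the mean of all probesets. They were also run without each TM array in turn. The other alternatives were not run for them, among them the 2-fold threshold and the methods' t-test. That t-test with adjustment called 0 genes under TM. Of the 114 called genes named by rule, 68 were called in the same direction under every alternative run for named genes. The other 46 were Aldh18a1, Arhgap26, Bid, Bop1, Cdt1, Cebpb, Creld1, Ddx18, Dnajc10, Dnajc3, Erdr1, Ern1, Foxa2, Gnl3, Hsp90b1, Irs1, Jund, Kdelr3, Lars, Lipe, Magt1, Mcl1, Mdm2, Mideas, Nfe2l2, Nip7, Nop14, Pes1, Plk3, Pparg, Ppargc1b, Prox1, Rnf5, Rrs1, Sec11a, Sec24b, Sesn3, Slc38a2, Slc3a2, Slc7a5, Smarcb1, Snhg5, Tars, Top2a, Tsr1 and Wdr75. In promoters of lower genes, ERSE-II was found 1 time rather than 2 in the 250 bases before the start alone. With several entries a gene included, an alternative chosen after seeing the data, lower promoters held AP-1 in 10 of 243 (4.12%), the UPRE core in 5 and TGACGTCA in 4. Smarcb1 reversed to -0.65 with the mean of its probesets. Small differences that were never called changed sign. Ppargc1a was 0.0041 with quantile normalization. Without 1 array Ppargc1a ran from -0.35 to 0.18, Apob from -0.41 to 0.0741, Cpt1a from -0.0273 to 0.29 and Mttp from -0.0464 to 0.15. Signal close to background limits the size of the decreases in 28 lower genes, and 3 arrays a group limit all calls.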
